A study of Homo sapiens with 12 samples.

Results

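The effect of depleting LARP4A was compared between PC3, a human prostate carcinoma line, and MG63, a human osteosarcoma line. The comparison is a difference of differences: the change from siControl to siLARP4A in PC3, minus the same change in MG63. It uses 8 of the 12 RNA-seq libraries of the study, 2 libraries in each of 4 groups. Every group was transfected with 10 nM siRNA by lipofection and harvested after 72 h, with a non-targeting siRNA in the siControl groups. All cells carried the wild-type genotype, per the labels. The remaining 4 libraries, siLARP4B in both lines, served to estimate the spread and as a second knockdown for comparison. PC3 cells grew in RPMI 1640 with L-glutamine and MG63 cells in Alpha-MEM with GlutaMAX, both with serum, so line and medium cannot be told apart. The labels do not say that the libraries of a group came from separate cultures, so p-values measure the spread between these libraries, which may be technical. A gene entered when its FPKM (fragments scaled to the library total and to the length of the transcript model) averaged 1 or more over the 6 libraries of each line. Of 28163 gene symbols on chromosomes 1 to 22 and X, 10980 did so (39.0%). A further 1487 symbols reached that level only in PC3 and 1181 only in MG63. They were not analysed here.

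LARP4A, encoded by the gene listed as LARP4, is a La-related protein that binds the poly(A) tail of mRNAs together with poly(A)-binding protein, and is known for protecting tails from shortening. LARP4B is its closest relative. Such a protein can act on many mRNAs at once, and both the mRNAs present and the pathways active in a cell differ between an epithelial carcinoma line and a mesenchymal bone tumour line. Among those pathways are the integrated stress response, through which ATF4 raises genes of amino acid supply, and the interferon response, through which STAT and IRF factors raise antiviral genes.

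The promoters of 5 genes on which the comparison turns are shown first, because motifs of these pathways can be read in them. Sequences are from RefSeq on GRCh38.p14, 5′ to 3′ on the gene's strand and ending at the base before the start, except for ASNS. For ASNS, whose deposited model starts further out, 30 bases around the motif are given. Capitals mark the motif named. In ASNS (chr7:97872458-97872487, minus strand) and CHAC1 (chr15:40953261-40953470, plus strand) it is TGATGNAA, the form of the element that ATF4 dimers bind. The ASNS copy starts at base -68 and the CHAC1 copy, which lies on the other strand, at base -209.

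ASNS: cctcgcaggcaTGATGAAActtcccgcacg
CHAC1: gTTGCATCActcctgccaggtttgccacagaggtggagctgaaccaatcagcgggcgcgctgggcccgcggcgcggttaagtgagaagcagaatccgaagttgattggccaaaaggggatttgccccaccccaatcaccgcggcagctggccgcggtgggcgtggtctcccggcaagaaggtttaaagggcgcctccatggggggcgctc

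In IFI6 (chr1:27672193-27672352, minus strand) and GBP1 (chr1:89065209-89065368, minus strand) the capitals mark GAAANNGAAA, the core of the interferon-stimulated response element. IFI6 holds 3 copies, at -156, -115 and -93, and GBP1 holds 1 on the other strand at -127. In EGR1 (chr5:138465319-138465478, plus strand) they mark 2 copies of the CArG box, the element that serum response factor binds, at -105 and -83.

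IFI6: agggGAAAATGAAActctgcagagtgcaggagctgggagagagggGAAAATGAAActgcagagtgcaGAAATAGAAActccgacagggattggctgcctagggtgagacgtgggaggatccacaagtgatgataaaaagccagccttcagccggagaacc
GBP1: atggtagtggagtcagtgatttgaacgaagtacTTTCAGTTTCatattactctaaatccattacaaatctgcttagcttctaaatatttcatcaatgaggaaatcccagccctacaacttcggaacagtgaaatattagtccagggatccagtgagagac
EGR1: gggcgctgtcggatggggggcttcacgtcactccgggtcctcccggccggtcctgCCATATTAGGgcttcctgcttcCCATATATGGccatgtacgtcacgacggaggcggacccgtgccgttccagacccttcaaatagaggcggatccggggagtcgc

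The 3 motifs were searched on both strands in the 250 bases before each RefSeq start. TGATGNAA was found in 3.14% of all 35116 windows, in 2.11% of the 8568 analysed genes with a window, and in 5 of the 37 stress response genes with one. GAAANNGAAA was found in 3.02% of all windows, in 3.08% of the analysed genes, and in 20 of 34 interferon response genes. The CArG box was found in 1.16% of all windows and in 2 of 18 immediate early genes, EGR1 and SRF. The motifs also occurred outside their own lists. TGATGNAA was in 3 of 34 interferon response genes (IFIT3, MX1 and GBP1). It was also in 1 of 18 immediate early genes, ATF3, which is on the stress response list too and is counted there. The CArG box was in 2 of 34 interferon response genes (ISG15 and GBP1) and 0 of 37 stress response genes. GAAANNGAAA was in 1 of 37 and 1 of 18 genes of the other lists. In GBP1 only GAAANNGAAA is capitalised above. Matches are descriptions of sequence and were not tested for binding.

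LARP4 itself (chr12:50400885-50480004) fell in both lines. Its FPKM went from 19.0 and 19.4 to 2.36 and 2.47 in PC3, and from 8.18 and 8.50 to 2.11 and 2.19 in MG63. The level left was 12.6% of siControl in PC3 and 25.8% in MG63. The log2 fold change was -2.99 in PC3 and -1.93 in MG63, a difference between lines of -1.06 (SE 0.095, edgeR quasi-likelihood adjusted p = 8.7e-06). PC3 started from the higher level, the groups of neither line overlapped, and the levels after knockdown lay close together. LARP4B did not pass in either line and its difference was -0.15 (SE 0.088, adjusted p = 0.31). Library totals ranged from 16950000 to 24865000 fragments, with PC3 siLARP4A replicate 1 the deepest. The line labels were met by the summed levels of their markers, though not by every marker. Over the 8 libraries, 20 epithelial markers summed to FPKM 1652 to 1825 in PC3 and 84.3 to 87.6 in MG63, with LCN2 and AGR2 at no fragment in MG63. The 24 mesenchymal markers summed to 580 to 616 in PC3, with TWIST2 and FAP at no fragment, and 6645 to 6982 in MG63. A mean FPKM of 1 or more was reached by 15 epithelial markers in PC3 and 4 in MG63. For mesenchymal markers it was 12 in PC3 and 19 in MG63. The epithelial marker KRT7 went the other way, with a siControl mean of 6.33 in PC3 and 14.5 in MG63. None of 10 leukocyte markers reached the FPKM limit in both lines, and 2 did in MG63. Their summed FPKM was 0.27 to 0.607 in PC3. In MG63 it was 6.04 to 6.93 with siControl and 8.93 to 9.5 with siLARP4A, and CD3E and MS4A1 were at no fragment in either line. Their part in the results was not tested. In bulk RNA, a change in the share of a kind of cell and a change of RNA per cell cannot be told apart.

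siLARP4A changed 4842 genes in PC3 (44.1%) and 3569 in MG63 (32.5%) at an adjusted p under 0.05 in edgeR's quasi-likelihood F-test. In PC3 21.2% of all genes rose and 22.9% fell, and in MG63 17.1% rose and 15.4% fell. The test of the difference between lines passed for 1624 of 10980 genes (14.8%). Of these, 635 had the higher change in PC3 (5.78%) and 989 the lower (9.01%). This split depended on the scaling: 39.1% of the genes past were higher in PC3 with TMM, 43.8% with DESeq2's size factors and 51.2% with upper-quartile scaling. Of the 2194 genes that changed the same way in both lines, 1855 did not pass for the difference and 339 did. Only 711 of the 2477 genes past in PC3 alone, and 369 of the 1204 past in MG63 alone, passed for the difference. A call in 1 line and none in the other was thus mostly not a shown difference. The median difference over all genes was -0.01 on the log2 scale and its 5th and 95th percentiles were -0.49 and 0.46. Among the 1624 genes the median size was 0.42, the smallest was 0.16, and 88 reached 1 or more, 35 higher and 53 lower in PC3. Leaving out 1 library moved the total: it was 988 without PC3 siControl replicate 1, 932 and 950 without MG63 siControl replicates 1 and 2, and 1014 and 975 without MG63 siLARP4A replicates 1 and 2. The 4 library-pair changes of PC3 lay outside the range of the 4 of MG63 in each of these genes and in 41.9% of all genes. The lines themselves differed before knockdown: PC3 siControl against MG63 siControl passed for 8830 genes (80.4%), 41.1% higher and 39.3% lower in PC3, and it shares its libraries with the difference.

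**Figure D1:**
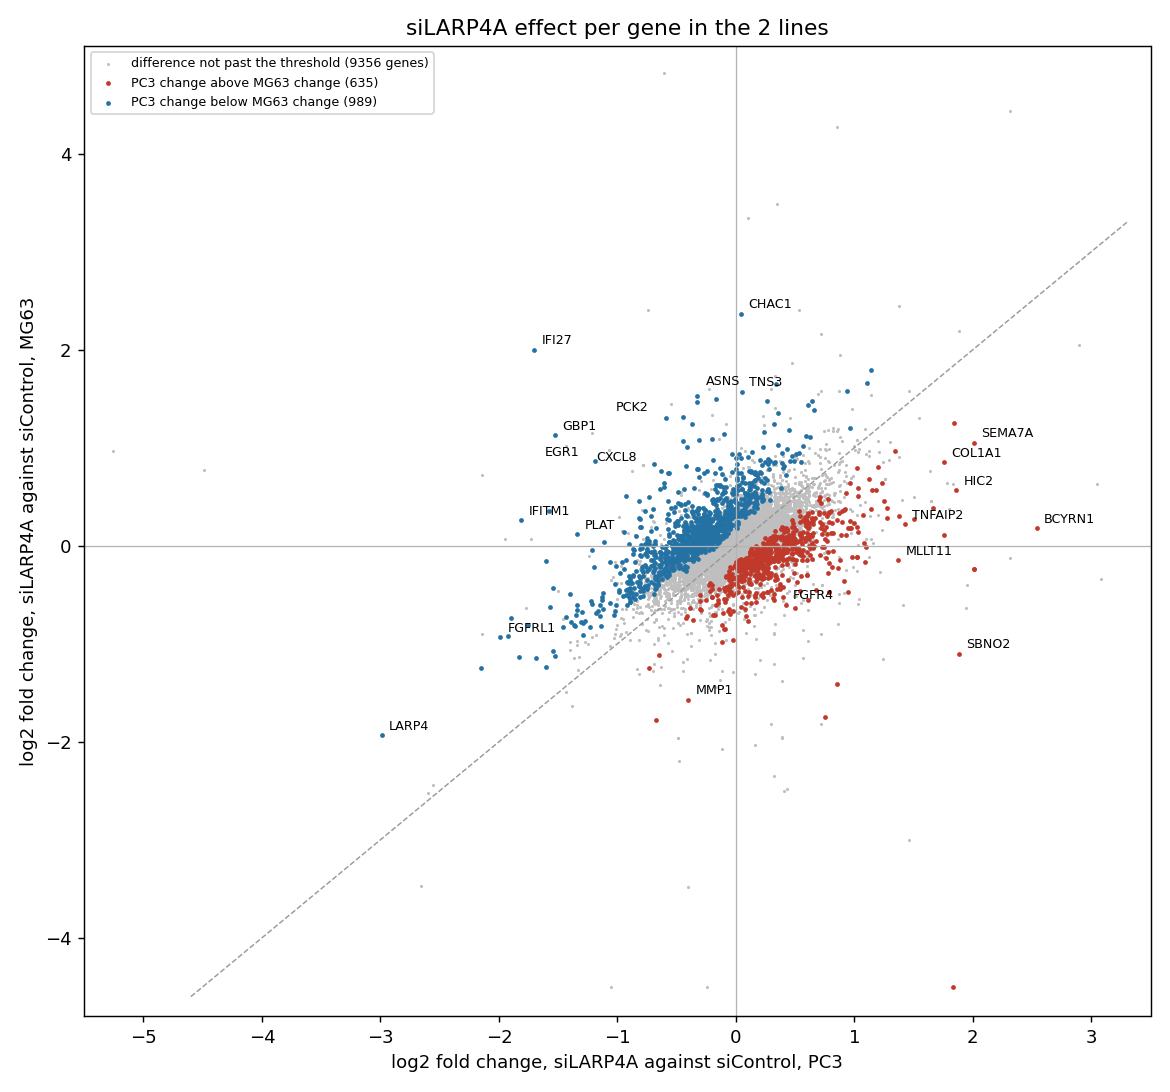
Each point is 1 of the 10980 genes, with its log2 fold change after siLARP4A in PC3 on the horizontal axis and in MG63 on the vertical axis; the dashed line marks equal change. Genes past for the difference are red where the PC3 change is higher (635) and blue where it is lower (989), and genes that did not pass are grey.

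Opposite changes, past in both lines and for the difference, were found in 171 genes. In 106 of them the gene fell in PC3 and rose in MG63 (0.965% of all genes), and in 65 it rose in PC3 and fell in MG63 (0.592%). Without 1 library the counts were 52 to 114 and 32 to 90, lowest without MG63 siLARP4A replicate 1 (52) and MG63 siControl replicate 2 (32). The first set held GBP1, EGR1, PCK2, ASNS, ABCC3 and CXCL8, and the second SBNO2, PRRX2, MEST, FGFR4 and WNT7B. Members of the gene lists described next are given with the counts of their list. Genes outside the naming rule in the methods were chosen as examples after their values were seen.

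Stress response genes, some of them genes of amino acid supply, were the first group with changes of unlike direction. Of 42 analysed members of the unfolded protein and integrated stress response list, 21 passed with the lower change in PC3 and 0 with the higher. Over all genes 9.01% were lower and 5.78% higher. The median difference of the list was -0.23, against -0.01 for all genes. In MG63, 26 members rose and 3 fell (17.1% and 15.4% of all genes). In PC3, 17 rose and 15 fell (21.2% and 22.9% of all genes). Of the 21, 6 fell in PC3 and rose in MG63 (0.965% of all genes did so). A further 5 rose in both lines but less in PC3, and 1 fell in both.

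CHAC1 (chr15:40953471-40956512), a glutathione-degrading enzyme and ATF4 target, had the largest difference of the list. Its FPKM was 4.84 and 5.56 with siControl and 5.34 and 5.34 with siLARP4A in PC3, and 0.509 and 0.62 against 2.71 and 3.05 in MG63. The MG63 groups were far apart while the PC3 groups overlapped, and the knockdown level in MG63 stayed below PC3. The log2 fold changes were 0.04 and 2.37 and the difference -2.33 (SE 0.26, adjusted p = 5.9e-05). The MG63 siControl libraries held only 14 and 18 CHAC1 fragments.

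ASNS (chr7:97852117-97872542) makes asparagine. It read FPKM 33.9 and 36.6 with siControl and 28.3 and 27.8 with siLARP4A in PC3, against 9.17 and 9.04 and then 25.5 and 26.2 in MG63. Neither line's groups overlapped, and after siLARP4A the lines stood close to each other. The difference was -1.86 (SE 0.10, adjusted p = 1.8e-07). The readthrough model CZ1P-ASNS shares its exons and gave -1.80, so it is not a second gene. PCK2 (chr14:24094311-24104125), the mitochondrial enzyme that makes phosphoenolpyruvate, is another ATF4 target though not on the list. PCK2 had FPKM 7.57 and 7.74 against 5.17 and 5.03 in PC3, and 4.76 and 3.70 against 9.70 and 10.7 in MG63. It fell in PC3 and rose in MG63, with a difference of -1.89 (SE 0.16, adjusted p = 6.5e-06).

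The serine pathway showed the same pattern in its first steps. PHGDH, the first enzyme, went from FPKM 100 and 99.2 to 78.5 and 80.5 in PC3 and from 125 and 130 to 212 and 219 in MG63, a difference of -1.11 (adjusted p = 3e-07). For PSAT1, the second enzyme, FPKM went from 58.2 and 60.2 to 46.3 and 43.1 in PC3 and from 28.0 and 28.4 to 52.8 and 58.6 in MG63. Its difference was -1.41 (adjusted p = 1.9e-07). The last enzyme, PSPH, did not follow: it fell in PC3 (-0.32), read -0.08 in MG63, and its difference of -0.24 did not pass (adjusted p = 0.13). SHMT2, which turns serine into glycine in mitochondria, fell in PC3 (-0.46) and read 0.06 in MG63, a difference of -0.52 (adjusted p = 0.00031).

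Of the amino acid transporters described here, SLC7A5 fell in PC3 and rose in MG63, and the others did not. SLC7A5, the light chain of the leucine transporter, went from FPKM 101 and 101 to 78.7 and 80.1 in PC3 and from 211 and 209 to 309 and 312 in MG63, with a difference of -0.94 (adjusted p = 1.8e-07). SLC7A11, the cystine carrier, rose in both lines, with log2 fold changes of 0.61 (PC3) and 1.44 (MG63) that differed by -0.82 (adjusted p = 0.00042). SLC6A9 (chr1:43996483-44031462), a glycine transporter outside the list, read -0.10 in PC3 and rose by 1.14 in MG63, a difference of -1.25 (SE 0.11, adjusted p = 9.2e-06). SESN2, an inhibitor of mTORC1 that leucine releases, also rose in both lines, less in PC3 (0.94) than in MG63 (1.58, difference -0.64, adjusted p = 0.001). SLC38A2 read -0.01 and 0.13 and did not pass for the difference (-0.14, adjusted p = 0.21).

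The regulators ATF4, ATF3 and DDIT3 and the chaperones described here had smaller differences between lines than CHAC1 or ASNS. They do not stand for all regulators on the list: NUPR1 and TRIB3 passed with the lower change in PC3. The difference of NUPR1 lay between those of PHGDH and SLC7A5, and that of TRIB3 between those of SESN2 and SHMT2. ATF4 mRNA, whose protein is controlled mainly in translation, fell slightly in PC3 (-0.12) and read 0.10 in MG63 (difference -0.22, adjusted p = 0.036). ATF3 rose in both lines, by 0.76 and 1.04, and its difference of -0.29 did not pass (adjusted p = 0.14). DDIT3 rose in PC3 (0.35) and read 0.08 in MG63, with a difference of 0.27 (adjusted p = 0.24). HSPA5, the main chaperone of the endoplasmic reticulum, rose in both lines (0.30 and 0.22), as did HYOU1 (0.22 and 0.30), with differences of 0.07 and -0.07 that did not pass. CANX, a lectin chaperone, fell in both lines, and further in PC3 (-0.81 and -0.52, difference -0.29, adjusted p = 0.01). The FPKM plot of stress genes by library shows 8 of the genes described.

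**Figure D2:**
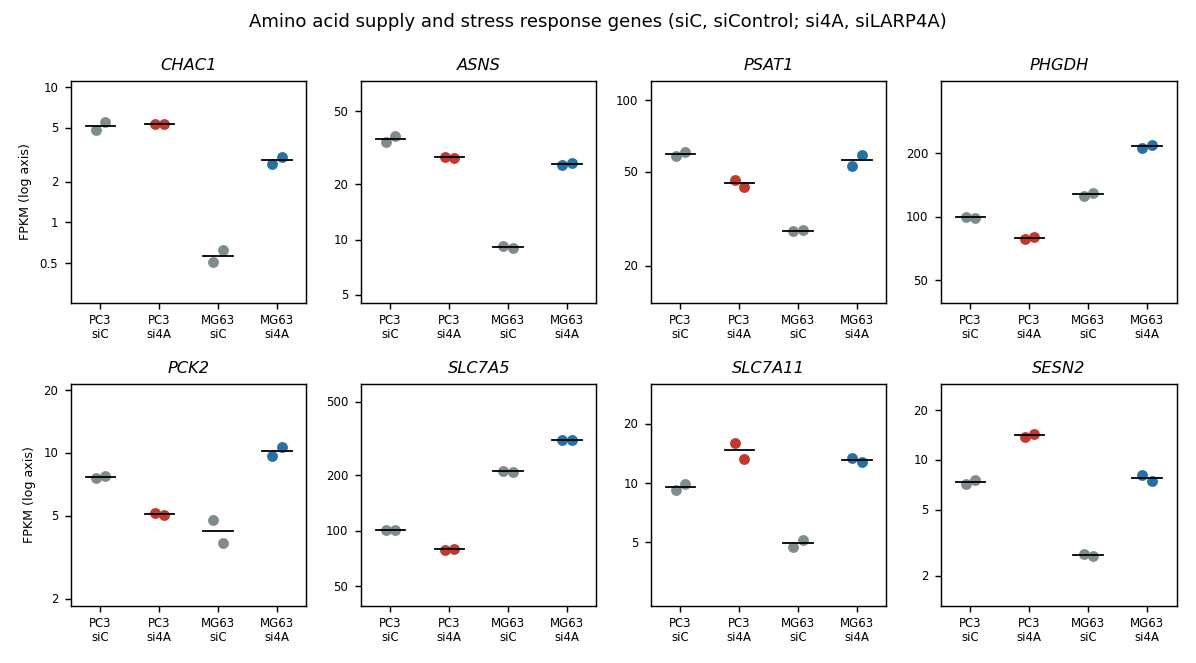
FPKM of 8 genes on log axes in the 8 libraries (points) with the group means (bars); siC is siControl and si4A is siLARP4A. ASNS, PSAT1, PHGDH, PCK2 and SLC7A5 fell in PC3 and rose in MG63, CHAC1 rose in MG63, and SLC7A11 and SESN2 rose in both.

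Interferon response genes were the second such group. Of 56 genes listed, 42 were analysed and 14 were below the FPKM limit in at least 1 line. The change was lower in PC3 for 24 and higher for 1 (9.01% and 5.78% of all genes), and the median difference was -0.53. In PC3, 18 members fell and 4 rose (22.9% and 21.2% of all genes). In MG63, 23 rose and 1 fell (17.1% and 15.4% of all genes). Of the 25 past, 8 fell in PC3 and rose in MG63 (0.965% of all genes did so). Many are scarce: 22 of the 42 had a mean FPKM under 5 in PC3 siControl and 16 in MG63 siControl.

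GBP1 (chr1:89052321-89065208), an interferon-gamma-induced GTPase, read FPKM 1.72 and 1.68 with siControl and 0.656 and 0.494 with siLARP4A in PC3, and 8.46 and 8.80 against 18.3 and 18.9 in MG63. In PC3 these rest on 27 to 92 fragments a library. The groups were apart in both lines, and the gap between lines widened. The log2 fold changes were -1.53 and 1.13 and the difference -2.67 (SE 0.18, adjusted p = 4.4e-07). Its relative GBP2 read -0.17 in PC3 and rose by 1.50 in MG63, a difference of -1.67 (adjusted p = 8e-05).

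The antiviral effectors had differences of similar sign. OAS1, a sensor of double-stranded RNA, had FPKM 10.5 and 11.2 against 6.66 and 7.34 in PC3, and 4.78 and 4.72 against 6.39 and 7.53 in MG63 (difference -1.22, adjusted p = 0.00035). IFI6 (chr1:27666064-27672192), a mitochondrial and endoplasmic reticulum membrane protein, had 21.0 and 16.5 against 13.6 and 10.8 in PC3 and 42.2 and 38.8 against 61.1 and 59.7 in MG63 (difference -1.21, SE 0.16, adjusted p = 0.00021). Both genes fell in PC3 and rose in MG63 with no overlap between groups. MX1, which blocks viral nucleocapsids, had overlapping groups in PC3, 1.45 and 0.965 against 1.13 and 0.569, and rose in MG63 from 6.56 and 5.58 to 12.4 and 12.7 (difference -1.52, adjusted p = 0.0093).

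The membrane proteins IFITM1, IFITM3 and BST2, which restrict viral entry or release, fell in PC3. IFITM1 (chr11:314040-315272) read FPKM 4.42 and 2.12 against 1.26 and 0.474 in PC3, from 6 to 53 fragments, and 58.5 and 54.7 against 67.0 and 66.2 in MG63. Its difference was -2.07 (SE 0.43, adjusted p = 0.005) and did not pass without PC3 siControl replicate 1 (-1.42, adjusted p = 0.07). BST2 (chr19:17402939-17405630) read 4.67 and 3.41 against 2.53 and 1.00 in PC3 and stayed between 153 and 163 in MG63, a difference of -1.16 (SE 0.27, adjusted p = 0.011). It did not pass without that same library (-0.88, adjusted p = 0.11), nor with limma. IFI27 (chr14:94110736-94116690) had the lowest difference of all genes named, -3.70 (SE 1.2, adjusted p = 0.047), but 1 to 13 fragments in each PC3 siControl and siLARP4A library. Its PC3 mean FPKM was 0.642 with siControl, 0.18 with siLARP4A and 2.71 with siLARP4B. It therefore met the FPKM limit only through siLARP4B, a group outside this contrast. The call was lost in 8 of its 20 alternative settings. Without PC3 siControl replicate 2 the difference was -2.66, and without PC3 siLARP4A replicate 2 it was -3.13.

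Of the factors that drive these genes, IRF1 fell from FPKM 8.88 and 7.33 to 4.67 and 4.85 in PC3 and rose from 11.6 and 11.3 to 14.1 and 14.7 in MG63 (difference -1.13, adjusted p = 3e-05). IRF9, a DNA-binding partner of STAT factors, fell in PC3 (-0.81) and read 0.27 in MG63 (difference -1.09, adjusted p = 0.00066). STAT2 fell in PC3 (-0.27), read -0.05 in MG63 and did not pass for the difference (adjusted p = 0.23). Several members did not separate the lines: IFIT1 read 0.01 and 0.10, IFIT5 0.14 and 0.05, and OASL -0.06 and 0.06. IFI44 (chr1:78649831-78664073) went the other way, up in both lines and more in PC3 (0.61 and 0.24, difference 0.37, SE 0.11, adjusted p = 0.036), and lost the call in 13 of 22 settings, among them that without PC3 siLARP4A replicate 1 (0.24, adjusted p = 0.22). The count of members lower in PC3 was 14 without PC3 siControl replicate 1, and 10 of 21 tested with a minimum mean FPKM of 5.

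**Figure D3:**
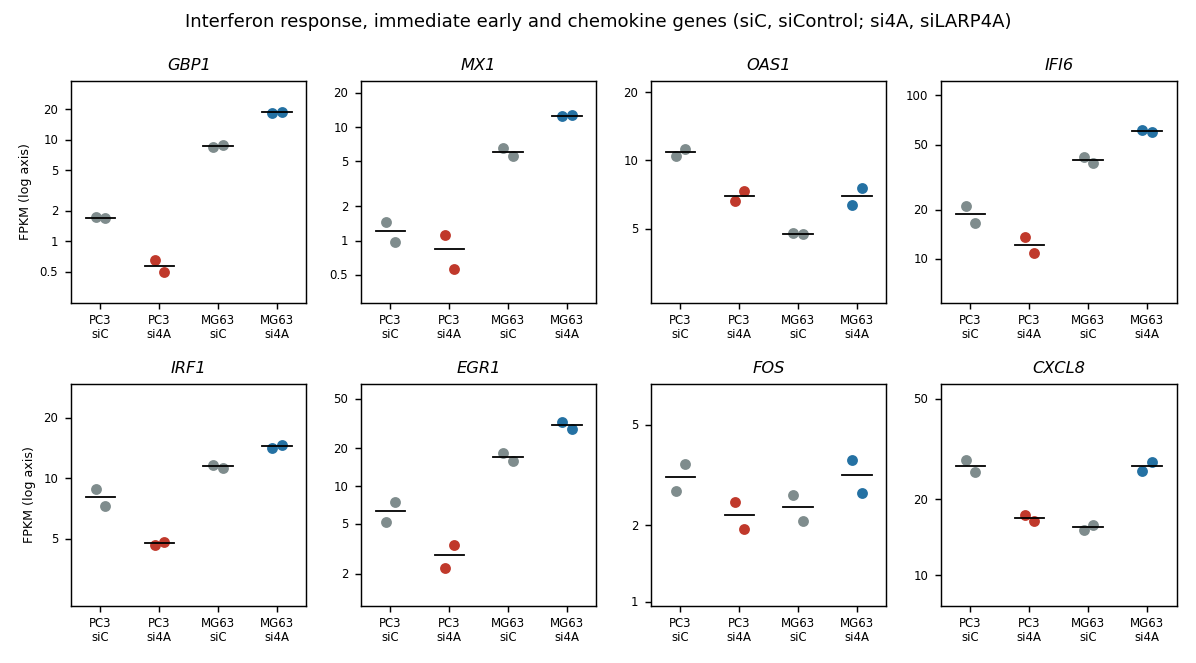
FPKM of 5 interferon response genes, 2 immediate early genes and the chemokine CXCL8 on log axes in the 8 libraries (points) with the group means (bars). For GBP1, OAS1, IFI6, IRF1, EGR1 and CXCL8 the siLARP4A libraries lie below siControl in PC3 and above it in MG63; for MX1 the PC3 groups overlap.

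Immediate early genes are transcribed within minutes of growth factor or serum signals. Of 22 analysed members, 8 passed with the lower and 3 with the higher change in PC3 (9.01% and 5.78% of all genes). The median difference was -0.22. The 8 became 5 without PC3 siControl replicate 1 or MG63 siControl replicate 2, and 4 without MG63 siLARP4A replicate 1. EGR1 (chr5:138465479-138469303), a zinc finger factor of this class, read FPKM 5.13 and 7.45 against 2.22 and 3.41 in PC3 and 18.4 and 16.0 against 32.7 and 28.7 in MG63. It fell in PC3 and rose in MG63, with a difference of -2.05 (SE 0.26, adjusted p = 0.00017). JUNB read 0.02 in PC3 and rose by 0.74 in MG63, a difference of -0.71 (adjusted p = 0.00071). FOS, its dimer partner, passed narrowly (-0.93, adjusted p = 0.049) though its change passed in neither line alone. JUN and KLF2 moved in the other direction. JUN rose by 0.48 in PC3 and read 0.05 in MG63 (difference 0.43, adjusted p = 0.00077). KLF2 (chr19:16324826-16328685) had FPKM 1.09 and 0.819 against 1.91 and 1.83 in PC3 and 8.62 and 7.89 against 7.69 and 7.35 in MG63, a difference of 1.09 (SE 0.19, adjusted p = 0.0016).

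Feedback genes of the MAPK pathway did not share 1 direction (over all genes, 5.78% were higher and 9.01% lower). Of 22 analysed, 7 were higher and 5 lower in PC3, with 4 higher without MG63 siLARP4A replicate 2. SPRY2, an inhibitor of receptor signalling, rose in PC3 (0.29) and fell in MG63 (-0.32), with a difference of 0.61 (adjusted p = 0.0018). The ERK phosphatase gene DUSP5 rose in PC3 (0.45) and read -0.12 in MG63, a difference of 0.57 (adjusted p = 0.0081). DUSP16 (chr12:12473282-12562863), which acts mainly on JNK and p38, read 0.01 in PC3 and rose by 0.69 in MG63, a difference of -0.68 (SE 0.15, adjusted p = 0.0064). EPHA4 (chr2:221418027-221574202), an ephrin receptor, rose in PC3 by 0.89 and had a difference of 0.79 (SE 0.21, adjusted p = 0.022). It did not pass with limma or without PC3 siControl replicate 1 (0.63, adjusted p = 0.091), either MG63 siControl replicate (0.77 and 0.80) or MG63 siLARP4A replicate 1 (0.62).

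Of 12 EGF and FGF receptors and ligands, 3 were higher and 6 lower in PC3, with 3 lower without PC3 siControl replicate 2. Over all genes 5.78% were higher and 9.01% lower. FGFR4 (chr5:177086915-177098144) read FPKM 1.28 and 1.46 against 1.72 and 1.99 in PC3, where it is scarce, and 149 and 150 against 97.2 and 97.1 in MG63. It rose in PC3 and fell in MG63 (difference 1.02, SE 0.13, adjusted p = 0.00014). FGFR1 rose more in PC3, by 0.82 against 0.13 (difference 0.69, adjusted p = 9.2e-06). FGFRL1 (chr4:1011626-1026898), a receptor without a kinase domain, fell in both lines. Its FPKM went from 42.8 and 44.7 to 10.9 and 11.2 in PC3 and from 68.5 and 67.8 to 35.9 and 34.3 in MG63, a difference of -1.06 (SE 0.063, adjusted p = 2e-07). The ligand FGF2 also fell in both (-1.16 and -0.67, difference -0.49, adjusted p = 0.0038).

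Of 26 NF-kB and inflammatory genes, 3 were higher and 5 lower in PC3 (5.78% and 9.01% of all genes). Of the 5, 2 fell in PC3 and rose in MG63 (0.965% of all genes did so). The 5 became 3 without PC3 siControl replicate 1 or MG63 siControl replicate 2. CXCL8 (chr4:73740569-73743716), a neutrophil chemokine, read FPKM 28.6 and 25.6 against 17.3 and 16.4 in PC3 and 15.2 and 15.8 against 26.0 and 28.2 in MG63. The line order reversed: PC3 was higher with siControl and MG63 with siLARP4A. The difference was -1.52 (SE 0.14, adjusted p = 1.3e-05). The related CXCL1 fell in PC3 (-1.06) and read -0.17 in MG63, a difference of -0.89 (adjusted p = 0.0047). TNFAIP2 (chr14:103123461-103137439), a TNF-induced gene, rose from FPKM 2.07 and 2.28 to 5.94 and 5.74 in PC3 and from 34.8 and 33.5 to 38.8 and 39.4 in MG63, a difference of 1.20 (SE 0.093, adjusted p = 2.7e-06). IL13RA2, a decoy interleukin receptor, fell in both lines and more in MG63 (-0.67 and -1.78, difference 1.11, adjusted p = 0.0028).

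Extracellular matrix genes more often rose than fell in both lines, and their differences between lines went both ways. In PC3 19 rose and 11 fell (21.2% and 22.9% of all genes). In MG63 23 rose and 4 fell (17.1% and 15.4% of all genes). Of 37 analysed, 8 were higher and 11 lower in PC3 (5.78% and 9.01% of all genes), with a median of -0.11. The 8 became 5 without MG63 siControl replicate 1 or either MG63 siLARP4A replicate. The 2 chains of type I collagen, which assemble into 1 trimer, went apart in PC3. COL1A1 (chr17:50184101-50201631) rose from FPKM 2.38 and 2.47 to 7.60 and 8.90 in PC3 and from 744 and 745 to 1337 and 1295 in MG63, a difference of 0.91 (SE 0.11, adjusted p = 9.3e-05). COL1A2 (chr7:94394895-94431227) fell from 5.21 and 4.29 to 3.08 and 2.59 in PC3 and rose from 458 and 474 to 660 and 634 in MG63, a difference of -1.23 (SE 0.13, adjusted p = 5.2e-05). Both chains rose in MG63, from levels far above those of PC3.

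Thrombospondin, THBS1 (chr15:39581079-39599466), read FPKM 4.25 and 4.50 against 3.70 and 3.34 in PC3 and rose from 6.39 and 5.92 to 13.4 and 12.2 in MG63, a difference of -1.39 (SE 0.16, adjusted p = 7.7e-05). The lysyl oxidase relative LOXL1 and the fibrillin FBN2 were also lower in PC3 (-0.47, adjusted p = 0.00017, and -0.77, adjusted p = 0.0058). Versican, VCAN, the laminin chain LAMA4 and FBN1 were higher. VCAN rose in PC3 (0.76) and read -0.12 in MG63 (difference 0.88, adjusted p = 0.0015). LAMA4 rose in PC3 by 0.60 and fell in MG63 by 0.30 (difference 0.91, adjusted p = 4.9e-05). FBN1 rose in both, by 0.96 and 0.25 (difference 0.71, adjusted p = 0.00071).

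Among 21 proteases and inhibitors of invasion, 4 were higher and 4 lower in PC3 (5.78% and 9.01% of all genes). The 2 plasminogen activators behaved differently. PLAT (chr8:42174718-42207565), tissue plasminogen activator, fell from FPKM 44.7 and 43.4 to 16.7 and 18.3 in PC3 and read 4.91 and 4.86 against 5.01 and 5.42 in MG63 (difference -1.46, SE 0.097, adjusted p = 4.7e-07). PLAU, urokinase, rose in both lines, by 0.20 and 0.88 (difference -0.68, adjusted p = 2.9e-06). The collagenase gene MMP1 (chr11:102789919-102798160) had nearly equal levels in both siControl groups, FPKM 14.3 and 13.0 in PC3 and 13.2 and 11.8 in MG63. After siLARP4A it read 11.3 and 9.25 in PC3 and 4.27 and 4.02 in MG63, a difference of 1.17 (SE 0.15, adjusted p = 0.00018).

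Integrins and adhesion receptors were lower in PC3 in 7 of 17 cases and higher in 2 (9.01% and 5.78% of all genes). The median was -0.26. The 2 became 1 without MG63 siControl replicate 2 or MG63 siLARP4A replicate 1. ITGAV (chr2:186590056-186680901), ITGA3, ITGB5 and CD44 each fell in PC3 and rose in MG63. For ITGAV the FPKM went from 8.35 and 8.63 to 7.48 and 6.13 in PC3 and from 18.9 and 18.7 to 24.8 and 23.6 in MG63, a difference of -0.71 (SE 0.10, adjusted p = 0.00042). ITGA5, the fibronectin receptor chain, rose in both lines by 0.62 and 0.51 and did not pass for the difference (0.11, adjusted p = 0.17). SEMA7A (chr15:74409289-74433958), a membrane semaphorin that binds integrins, rose from 19.1 and 18.2 to 71.1 and 79.0 in PC3 and from 2.77 and 2.65 to 5.49 and 5.52 in MG63, a difference of 0.96 (SE 0.12, adjusted p = 0.00018).

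**Figure D4:**
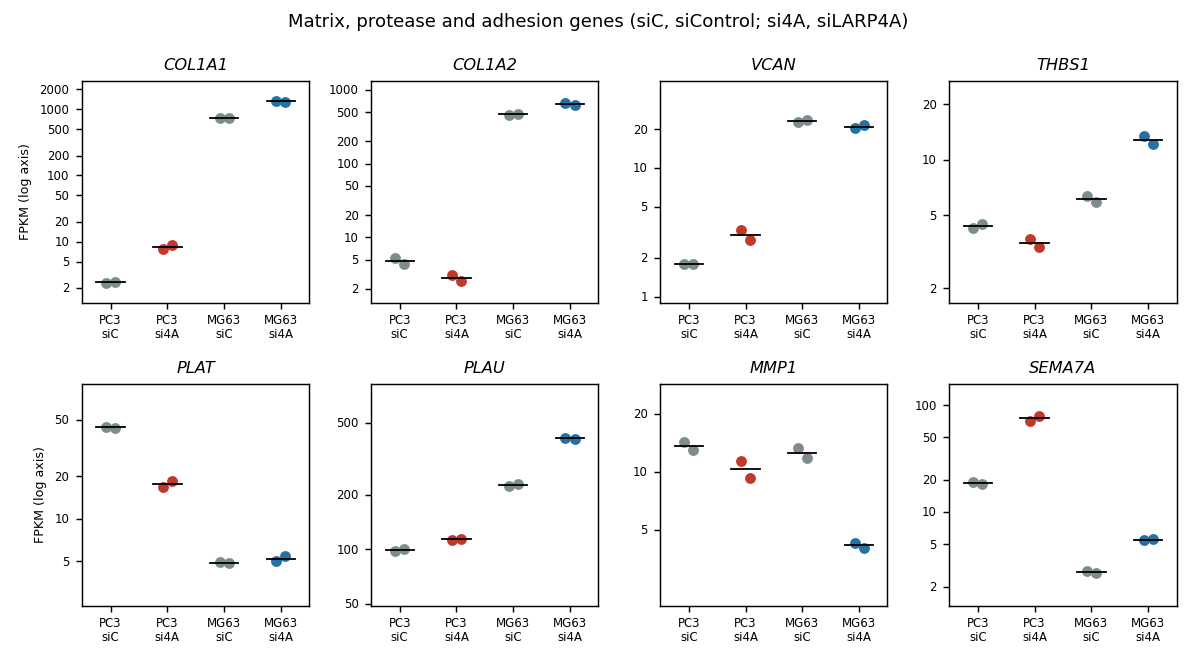
FPKM of 8 matrix, protease and adhesion genes on log axes in the 8 libraries (points) with the group means (bars). COL1A1 and SEMA7A rose in both lines, COL1A2 and THBS1 fell in PC3 and rose in MG63, PLAT fell in PC3, and MMP1 fell further in MG63.

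Cholesterol synthesis genes fell in both lines and fell further in MG63. Of 30 analysed, 19 fell in PC3 (22.9% of all genes) and 24 in MG63 (15.4% of all genes). The change was higher in PC3 for 12 and lower for 0 (5.78% and 9.01% of all genes), with a median of 0.21. The count was 7 without MG63 siLARP4A replicate 2. HMGCS1 (chr5:43287470-43313181), which makes HMG-CoA, read FPKM 12.6 and 13.3 against 14.9 and 13.6 in PC3 and fell from 23.6 and 23.9 to 15.9 and 15.3 in MG63. Its difference was 0.72 (SE 0.091, adjusted p = 0.00017). ACAT2 and MVK, which act just before and after it in the same route, read -0.06 and -0.07 in PC3 and fell by 0.64 and 0.67 in MG63.

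DNA replication genes also fell in both lines, 32 of 49 in PC3 (22.9% of all genes) and 38 in MG63 (15.4%). For the difference, 12 were higher and 3 lower in PC3 (5.78% and 9.01% of all genes). The 12 became 7 without PC3 siControl replicate 1 or MG63 siLARP4A replicate 2, 5 without either MG63 siControl replicate, 4 without MG63 siLARP4A replicate 1, and 7 with the deduplicated table described with the ribosomal genes. The 3 lower genes became 1 or 0 without any 1 of PC3 siControl replicates 1 and 2, PC3 siLARP4A replicate 2, MG63 siControl replicates 1 and 2, and MG63 siLARP4A replicate 2. GINS4 (chr8:41529261-41545028), a subunit of the replicative helicase, read -0.05 in PC3 and fell by 0.70 in MG63 (difference 0.65, SE 0.10, adjusted p = 0.0009). UNG (chr12:109097597-109110992), which removes uracil from DNA, was lower in PC3. Its FPKM fell from 51.5 and 54.7 to 17.9 and 17.2 in PC3 and from 57.9 and 59.0 to 23.6 and 24.9 in MG63 (difference -0.35, SE 0.084, adjusted p = 0.011), and it did not pass without PC3 siControl replicate 2 (-0.29) or MG63 siLARP4A replicate 2 (-0.32). Of 47 mitosis genes, 3 were higher in PC3 and 0 lower, a share near the 5.78% of all genes. The 3 became 1 without PC3 siControl replicate 1, MG63 siControl replicate 2 or either MG63 siLARP4A replicate, and 8 without PC3 siLARP4A replicate 2. ANLN (chr7:36389862-36453791), a scaffold of the cleavage furrow, was 1 of the 3, with a rise of 0.38 in PC3, -0.11 in MG63 and a difference of 0.50 (SE 0.073, adjusted p = 0.0005).

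Cytosolic ribosomal protein genes had small differences in 1 direction. Of 78 analysed, 49 were lower in PC3 and 0 higher (9.01% and 5.78% of all genes), with a median of -0.22. In PC3 58 fell and 1 rose, and in MG63 3 fell and 1 rose, where 22.9% and 21.2% of all genes did so in PC3 and 15.4% and 17.1% in MG63. RPS27 (chr1:153990755-153992155), with the lowest difference, read FPKM 728 and 674 against 544 and 559 in PC3 and 563 and 583 against 607 and 609 in MG63 (-0.46, SE 0.063, adjusted p = 0.00028). Over the 4 library pairs of a line the list's median change was -0.24 to -0.15 in PC3 and -0.02 to 0.04 in MG63. This result depended on which table of PC3 siControl replicate 2 was used. With the authors' deduplicated table of that library, which holds 85.0% of its fragments, the count of lower members was 0 and the median 0.04. A deduplicated table was used for no other library, so that fit sets unlike tables against each other and cannot decide the direction. Against PC3 siControl replicate 1 alone, the list's median change in PC3 was -0.24 and -0.18 with siLARP4A replicates 1 and 2. Without PC3 siControl replicate 1 the count was 14, without PC3 siLARP4A replicate 1 it was 29, and without either library of the MG63 groups 21 to 32. It was 32 with upper-quartile scaling, 26 with limma and 25 with filterByExpr. RPS27 was at -0.03 (adjusted p = 0.97) with the deduplicated table. By quartile of model length, shortest first, 252, 225, 258 and 254 genes were lower in PC3 and 93, 172, 219 and 151 higher, with median differences of -0.05, -0.00, 0.01 and -0.02. The part of length in the ribosomal result was not tested.

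The respiratory chain list held 8 of 63 members lower in PC3 and 0 higher, where 9.01% of all genes were lower. The 8 became 4 without PC3 siControl replicate 1, without MG63 siLARP4A replicate 2 or with the deduplicated table, and 5 without PC3 siLARP4A replicate 1 or MG63 siControl replicate 1. COX7C (chr5:86617941-86620962), a cytochrome c oxidase subunit, stood out with FPKM 705 and 675 against 256 and 290 in PC3 and 266 and 277 against 174 and 178 in MG63. It fell in both lines, with a difference of -0.75 (SE 0.082, adjusted p = 5.6e-05), and its model contains SNORD138. With the deduplicated table it no longer passed (-0.52, adjusted p = 0.093). The remaining lists had fewer or mixed calls (over all genes, 5.78% were higher and 9.01% lower). NRF2 targets and iron genes were higher in 5 and lower in 6 of 24, glycolysis and hypoxia genes higher in 1 and lower in 7 of 36. TGF-beta and BMP genes were higher in 2 and lower in 8 of 34, and SRF and YAP targets higher in 1 and lower in 7 of 20. Without PC3 siControl replicate 1, 3 SRF and YAP targets were lower, and without MG63 siControl replicate 2, 5 TGF-beta and BMP genes. The 2 higher TGF-beta and BMP genes became 1 without PC3 siControl replicate 1, either MG63 siControl replicate or MG63 siLARP4A replicate 1. The 5 higher NRF2 targets became 3 without either MG63 siControl replicate and 2 without MG63 siLARP4A replicate 1. LARP family and poly(A) partners were higher in 1 and lower in 3 of 25, LARP4 itself among the 3. Without PC3 siControl replicate 1, PC3 siLARP4A replicate 2 or any 1 of the 4 MG63 libraries, 1 was lower. Of these, ABCC3 (chr17:50634881-50692253), an efflux transporter, fell in PC3 from FPKM 14.6 and 15.1 to 10.2 and 11.6 and rose in MG63 from 1.65 and 1.43 to 3.69 and 3.78, a difference of -1.76 (SE 0.13, adjusted p = 1.8e-06). P4HA2 (chr5:132190147-132227853), a collagen prolyl hydroxylase, fell in PC3 (-0.27) and rose in MG63 (0.74), a difference of -1.01 (SE 0.11, adjusted p = 5.6e-05).

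**Figure D5:**
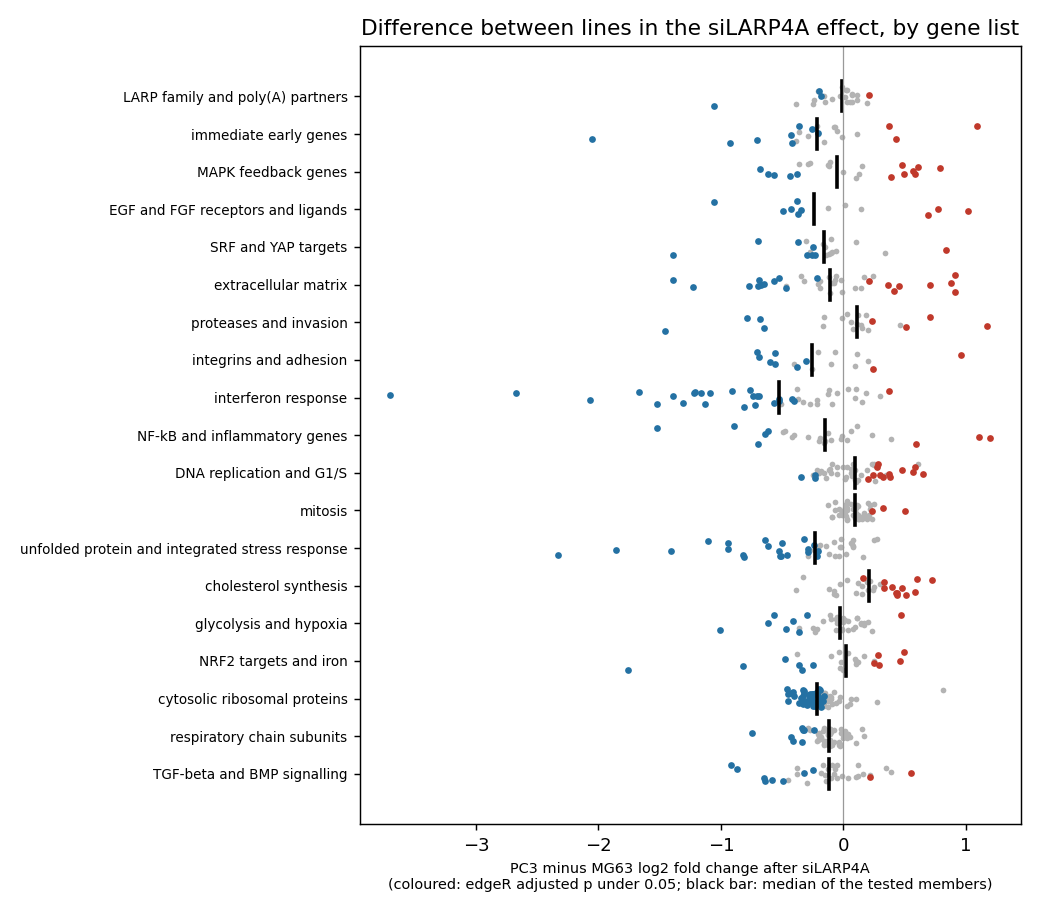
Each point is an analysed member of a gene list, placed by its PC3 minus MG63 log2 fold change after siLARP4A; red and blue points pass the test of the difference, and black bars are medians. The stress, interferon and ribosomal lists have 21, 24 and 49 members past to the left of 0, and the cholesterol list 12 to the right.

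The highest differences outside the lists came from genes of several kinds. SBNO2 (chr19:1107638-1174268), a co-regulator of inflammatory transcription, had the highest. It rose from FPKM 1.80 and 2.61 to 8.43 and 7.88 in PC3, and read 6.76 and 4.22 against 3.43 and 1.60 in MG63. The difference was 2.98 (SE 0.43, adjusted p = 0.00043), with a wide spread between the MG63 libraries. HIC2 (chr22:21417371-21451461), a zinc finger repressor, rose from 1.46 and 1.56 to 5.24 and 5.76 in PC3 and from 2.39 and 2.47 to 3.66 and 3.44 in MG63, a difference of 1.29 (SE 0.13, adjusted p = 1.9e-05). MLLT11 (chr1:151060397-151069544) rose in PC3 from 1.39 and 1.84 to 4.13 and 4.27 and read 14.1 and 14.2 against 12.7 and 12.3 in MG63, a difference of 1.52 (SE 0.14, adjusted p = 1e-05).

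TGM2 (chr20:38127385-38166508), tissue transglutaminase, rose in PC3 from FPKM 1.47 and 1.29 to 2.96 and 2.92 and read 49.1 and 47.0 against 46.3 and 37.4 in MG63, with a difference of 1.26 (SE 0.16, adjusted p = 0.00015). PRRX2 (chr9:129665647-129722672), a mesenchymal homeobox factor, rose in PC3 from 1.20 and 0.887 to 1.64 and 2.35 and fell in MG63 from 36.0 and 34.5 to 27.0 and 27.0. PRRX2 had 22 to 58 fragments in each of these PC3 libraries and a difference of 1.27 (SE 0.23, adjusted p = 0.0025). SNCB (chr5:176620082-176630534), beta-synuclein, rose in both lines, by 1.66 and 0.39 (difference 1.28, SE 0.24, adjusted p = 0.0025). MEST (chr7:130492085-130506465), an imprinted gene, rose in PC3 from 12.8 and 14.3 to 20.9 and 20.4 and fell in MG63 (difference 1.16, SE 0.19, adjusted p = 0.001). WNT7B (chr22:45920366-45977162), a Wnt ligand, rose from 19.7 and 19.2 to 26.1 and 30.5 in PC3 and fell from 9.87 and 8.93 to 6.10 and 7.27 in MG63, a difference of 1.00 (SE 0.13, adjusted p = 0.00019).

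Noncoding and short models among the highest need care. BCYRN1 (chr2:47335315-47335514), a 200-base cytoplasmic RNA, read FPKM 36.5 and 60.9 against 343 and 224 in PC3 and 1902 and 1529 against 2373 and 1443 in MG63. It rose in PC3 while the MG63 groups overlapped, with a difference of 2.36 (SE 0.41, adjusted p = 0.0017). SNORD28 (chr11:62854621-62854695), a small nucleolar RNA inside SNHG1, had 4 to 20 fragments in each of the 8 libraries and a difference of 2.50 (SE 0.60, adjusted p = 0.012). It did not pass without MG63 siLARP4A replicate 2 (2.19, adjusted p = 0.058). MIR3648-1 and MIR3648-2 (chr21:8208473-8208652) share 1 locus with RNA45SN2 and the same values, 2 to 31 fragments, so their 2.25 (SE 0.60, adjusted p = 0.023) is 1 measurement. Without PC3 siControl replicate 1 it was 1.70 (adjusted p = 0.11), and it also failed without MG63 siControl replicate 2 (1.99) or MG63 siLARP4A replicate 1 (1.93). FLNC-AS1 (chr7:128850162-128862626), on the other strand of FLNC, rose in PC3 (1.10) and read -0.01 in MG63, and the files do not say whether counting used strand. RPL23P8 (chr7:20827298-20827820), a pseudogene of a ribosomal protein gene, had a difference of -1.94 (SE 0.53, adjusted p = 0.025) and lost the call in 8 of 20 settings, among them that without PC3 siControl replicate 1 (-1.20, adjusted p = 0.13).

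Changes seen mainly in 1 line complete the named genes. In PC3, S100A2 (chr1:153561109-153565844), a calcium-binding protein of epithelia, fell from FPKM 109 and 102 to 44.0 and 47.2, and read 7.42 and 7.83 against 6.45 and 8.06 in MG63 (difference -1.17, SE 0.14, adjusted p = 8.9e-05). ALDH3A1 (chr17:19737985-19745459), an aldehyde dehydrogenase, fell in PC3 from 7.28 and 6.43 to 2.00 and 2.57 and read 339 and 346 against 314 and 288 in MG63 (difference -1.44, SE 0.24, adjusted p = 0.0013). CNN3 (chr1:94896957-94927110), a calponin, rose in PC3 from 16.4 and 19.0 to 31.4 and 29.6 and read 134 and 138 against 129 and 128 in MG63 (difference 0.84, SE 0.086, adjusted p = 3e-05).

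In MG63, TNS3 (chr7:47275154-47582111), a focal adhesion protein, rose from FPKM 2.42 and 2.75 to 7.51 and 7.52 and stayed at 14.8 to 15.9 in PC3 (difference -1.51, SE 0.089, adjusted p = 2e-07). IGFBP4 (chr17:40443450-40457725), which binds insulin-like growth factors, rose from 2.81 and 3.04 to 6.57 and 5.69 and was far more abundant in PC3, where it read 239 and 234 against 194 and 220 (difference -1.29, SE 0.12, adjusted p = 1.8e-05). CLDN11 (chr3:170418868-170434691), a tight junction claudin, fell from 31.7 and 34.2 to 16.7 and 16.2 and read 2.66 and 2.61 against 2.39 and 2.48 in PC3 (difference 0.86, SE 0.11, adjusted p = 0.00017). KRT19 (chr17:41523617-41528308), a keratin at 354 to 401 in PC3, fell in MG63 from 2.11 and 2.07 to 1.52 and 0.891, on 23 to 55 fragments (difference 0.87, SE 0.21, adjusted p = 0.014). It did not pass without MG63 siControl replicate 1 (0.86) or 2 (0.88), or MG63 siLARP4A replicate 2 (0.52, adjusted p = 0.22).

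The other named members had smaller differences. FSTL1 (chr3:120392293-120450992), a secreted glycoprotein that binds BMPs, rose from FPKM 72.2 and 69.9 to 95.3 and 92.3 in PC3 and fell from 181 and 182 to 162 and 159 in MG63 (difference 0.55, SE 0.056, adjusted p = 2.9e-05). TGFB2 (chr1:218345284-218444619), a TGF-beta ligand, read -0.13 in PC3 and rose by 0.79 in MG63 (difference -0.92, SE 0.21, adjusted p = 0.0091), and failed with limma and without MG63 siControl replicate 2 (-0.88) or MG63 siLARP4A replicate 1 (-0.80). GCLM (chr1:93885200-93909430), a subunit of the first enzyme of glutathione synthesis, read -0.02 in PC3 and fell by 0.50 in MG63 (difference 0.49, SE 0.085, adjusted p = 0.0018). KRT7 (chr12:52233243-52248921), a simple epithelial keratin, fell in PC3 and rose in MG63 (difference -0.73, SE 0.17, adjusted p = 0.011), and failed without PC3 siControl replicate 1 (-0.64). SERPINI1 (chr3:167735723-167825569), a serpin, and SOD2-OT1 (chr6:159760259-159762332), which overlaps ACAT2 on the other strand, fell in MG63 by 0.81 and 0.85, with differences of 0.69 and 0.75. SERPINI1 failed without 6 single libraries in turn (0.54 to 0.72), and SOD2-OT1 without MG63 siControl replicate 2 (0.72) or MG63 siLARP4A replicate 1 (0.69). ADM (chr11:10305073-10307397), a vasodilator peptide, rose by 0.32 in PC3 (difference 0.47, SE 0.12, adjusted p = 0.022), and failed without PC3 siControl replicate 2 (0.45), MG63 siControl replicate 1 (0.42) or MG63 siLARP4A replicate 2 (0.42). PABPN1 (chr14:23321457-23326185), the nuclear poly(A)-binding protein, read 0.02 in PC3 and fell by 0.19 in MG63 (difference 0.21, SE 0.056, adjusted p = 0.024), and failed in 6 of 22 settings, 5 of them without 1 library (0.19 to 0.22).

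The siLARP4B libraries show whether a line difference is larger with siLARP4A than with siLARP4B. The test subtracts the line difference of siLARP4B from that of siLARP4A, in which the siControl libraries cancel, and it passed for 4977 genes (45.3%). Of the 1624 genes past for siLARP4A, 1168 passed this test with the same sign, 48 with the opposite sign, and 408 did not pass. Both tests use the same siLARP4A libraries, so picking genes by the first favours the same sign in the second. This holds for all members and genes picked that way below. Of the 21 stress response members, 18 passed with the same sign and 0 with the opposite. Over all 42 analysed members, picked or not, 24 were lower and 4 higher (21.9% and 23.4% of all genes). ASNS was at -1.54 (adjusted p = 7.3e-08) and CHAC1 at -2.02 (adjusted p = 6.7e-06). SLC7A11 was not past (0.21, adjusted p = 0.17), and its line difference under siLARP4B was -1.03.

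Interferon genes divided. Of the 25 members past for siLARP4A, 8 passed with the same sign, 5 with the opposite, and 12 did not pass. Over all 42 analysed members, picked or not, 14 were higher and 8 lower (23.4% and 21.9% of all genes). GBP1 was at -1.61 (adjusted p = 3.8e-06) and IRF1 at -0.95 (adjusted p = 1.4e-05). OAS1 was at 0.41 (adjusted p = 0.039): its line difference was larger with siLARP4B, at -1.63. The siLARP4B difference between lines itself passed for 3839 genes (35.0%). It shares the siControl libraries with that of siLARP4A, so the 2 sets of values are only set side by side. Among the 42 interferon members, the siLARP4B difference was lower in PC3 for 31 and higher for 0 (20.1% and 14.8% of all genes). For siLARP4A these counts were 24 and 1. SBNO2 and BCYRN1 had line differences with siLARP4B of 2.79 and 2.23, and the test between the siRNAs did not pass for either (0.20, adjusted p = 0.73, and 0.14, adjusted p = 0.78). DNA replication and mitosis lists were past with the higher value for siLARP4A in 46 of 49 and 46 of 47 genes (23.4% of all genes). For replication genes, the line difference of siLARP4B was lower in PC3 in 47 of 49 (20.1% of all genes were lower), and that of siLARP4A in 3 of 49. EGR1 (-1.86, adjusted p = 0.00013), CXCL8 (-1.83, adjusted p = 2.5e-07), PLAT (-1.40, adjusted p = 1.1e-07), TNS3 (-1.57, adjusted p = 1.6e-08) and PCK2 (-1.57, adjusted p = 2.8e-06) all differed between the siRNAs in the direction of siLARP4A.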

How the data were processed

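Poly(A) RNA of 12 libraries was profiled. The submitters' processing notes name hg38, FastQC, HISAT2, featureCounts and edgeR, without versions. Each deposited table gives, per the file headers, for each transcript model a fragment count, an FPKM value and a signal (FPM, the count over a library total), made by the authors. On the values, FPM divides the count by 1 constant per library, and FPKM is FPM per kilobase. Strand handling is not given in the sources used here. The 3 unheaded columns were not used. Each table holds 86394 models with 28306 symbols. Per symbol on chromosomes 1 to 22 or X, the model with the most fragments over 12 libraries was used. Of 10980 genes kept, 74 have models at several loci and 3800 overlap another gene, so fragments may be shared. Coordinates are the tables' own.

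Counts were fitted with edgeR 4.0.16 in R 4.3.3 (TMM, 12 libraries, 1 mean per group, two-sided quasi-likelihood F-test, Benjamini-Hochberg over 10980 genes, threshold 0.05). Every adjusted p in the text without another tool named is from this fit. The scripts were tested on simulated data. Alternatives used DESeq2 1.42.0, and limma 3.58.1 on log2(FPKM + 1) or log2(FPKM + 0.1). Members and gene lists were chosen with earlier results of these data known. The 65 named genes are LARP4, LARP4B and, of genes past for the difference with a mean FPKM of 5 or more in at least 1 group and no overlap between lines, these: the 10 highest and 10 lowest, the 4 strongest opposite genes per orientation, the 4 highest and 4 lowest led by each line (log2 change under 0.2 in the other), and the highest and lowest member past in each list. The FPKM minimum was not applied to this last step, so EPHA4, DUSP16 and TGFB2 are named at lower levels. Promoters are from RefSeq, GRCh38.p14. Some genes are not reported here.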

Additional observations from a re-analysis of the deposited data

Results flagged for a closer look

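The siLARP4A effect differed between the lines in 64 of the 65 named genes by the edgeR test of the difference itself (adjusted p under 0.05, Benjamini-Hochberg over 10980 genes). All named genes but LARP4 and LARP4B were chosen for passing this test, so the count follows from the choice. Over all genes 14.8% passed. The values are PC3 minus MG63 differences of log2 fold changes. IFI27 met the FPKM limit in PC3 only through the siLARP4B libraries, which are outside the contrast.

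The change was higher in PC3 for these genes: SBNO2 2.98, SNORD28 2.50, BCYRN1 2.36, MIR3648-1 2.25, MIR3648-2 2.25, MLLT11 1.52, HIC2 1.29, SNCB 1.28, PRRX2 1.27, TGM2 1.26, TNFAIP2 1.20, MMP1 1.17, MEST 1.16, FLNC-AS1 1.11, KLF2 1.09, FGFR4 1.02, WNT7B 1.00, SEMA7A 0.96, COL1A1 0.91, KRT19 0.87, CLDN11 0.86, CNN3 0.84, EPHA4 0.79, SOD2-OT1 0.75, HMGCS1 0.72, SERPINI1 0.69, GINS4 0.65, FSTL1 0.55, ANLN 0.50, GCLM 0.49, ADM 0.47, IFI44 0.37 and PABPN1 0.21.

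It was lower in PC3 for these: IFI27 -3.70, GBP1 -2.67, CHAC1 -2.33, IFITM1 -2.07, EGR1 -2.05, RPL23P8 -1.94, PCK2 -1.89, ASNS -1.86, CZ1P-ASNS -1.80, ABCC3 -1.76, CXCL8 -1.52, TNS3 -1.51, PLAT -1.46, ALDH3A1 -1.44, THBS1 -1.39, IGFBP4 -1.29, SLC6A9 -1.25, COL1A2 -1.23, IFI6 -1.21, S100A2 -1.17, BST2 -1.16, FGFRL1 -1.06, LARP4 -1.06, P4HA2 -1.01, TGFB2 -0.92, COX7C -0.75, KRT7 -0.73, ITGAV -0.71, DUSP16 -0.68, RPS27 -0.46 and UNG -0.35.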

How the results depend on the processing

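Of the 64 named genes past, 45 passed in every alternative in which they were tested, 19 were lost in at least 1, and 0 reversed. With DESeq2's Wald test, 659 genes were lower in PC3, and 41 and 55 changed in opposite directions (higher and lower in PC3). Lower ribosomal protein genes numbered 32 with upper-quartile scaling, 26 with limma at either pseudocount, 25 with filterByExpr and 0 with the deduplicated table of PC3 siControl replicate 2, which also left 7 higher DNA replication genes. With a mean FPKM of 5 or more, 10 interferon genes were lower. The share of genes past that was higher in PC3, 39.1% with TMM, was 49.8% with filterByExpr, 47.5% without symbols at several loci and 35.7% with no filter. Why these counts moved was not tested.

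Leaving out 1 library gave 932 to 1819 genes past for the difference, 327 to 905 higher and 518 to 958 lower in PC3. It gave 2278 to 4027 genes in MG63, and 32 to 90 and 52 to 114 opposite genes. Lower interferon genes were 14 to 26, lower ribosomal genes 14 to 44, higher cholesterol genes 7 to 14 and higher DNA replication genes 4 to 14. The group left with 1 library is then assumed to vary like the others. The groups did not vary alike. The chi-square per degree of freedom between the 2 libraries of a group, a spread relative to counting noise, was 4.63 in PC3 siControl and 7.95 in PC3 siLARP4A. It was 2.3 in MG63 siControl and 2.73 in MG63 siLARP4A. With siLARP4B it was 2.01 in PC3 and 7.43 in MG63. The fit shares 1 estimate of spread among the groups, and the part of this in the counts was not tested. With the replicate number as a block, 526 genes were higher and 872 lower, and 1367 were shared with the unblocked fit. Correlations of same-numbered deviations were -0.0403 to 0.0402, so the numbers do not pair the libraries. Depth limits genes with few fragments, given beside their values.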
